A study of Homo sapiens with 4 samples.

Results

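The hypoxia-inducible factor (HIF) pathway was read through 34 genes, chosen by name. They were the HIF subunits, the oxygen-sensing hydroxylases EGLN1 and EGLN3, and targets of HIF outside glycolysis. These genes, and the further lists below, were chosen with earlier results of these data known, so shares set beside all genes are descriptive only. All 34 were found by Entrez identifier in the 4 gene tables, among 17010 genes listed for the vector and JFK libraries and 16860 for the siRNA libraries. The 4 RNA-seq libraries came from cells labelled HepG2, a human line from a liver tumour. Cells given a FLAG-tagged JFK plasmid (JFK is an older name of FBXO42, a ubiquitin ligase subunit) were set against cells given empty vector, and cells given siRNA against the chromatin factor ING5 against cells given a control siRNA. Each group was 1 library, so no difference has a replicate check. The number of siRNA sequences, the time after transfection and the oxygen level of the cultures are stated in none of the sources used.

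When oxygen is plentiful, EGLN hydroxylases mark the HIF alpha subunits for VHL-dependent destruction. When oxygen is scarce, the alpha subunits HIF1A and EPAS1 persist, pair with ARNT and bind DNA at short sites with the core ACGTG or GCGTG. Because this control acts on protein, transcript levels of the subunits do not report HIF activity, whereas target transcripts such as CA9, ADM, EGLN3 and ANKRD37 are commonly used as its readout. In liver cells the pathway is known for angiogenic, iron and lipid responses.

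Reads assigned to genes came to 7237325 in the library labelled JFK, versus 7179365 in vector, and to 9030075 under ING5 siRNA and 9196979 in control siRNA. FBXO42 had 115 counts in the library labelled JFK, versus 116 in vector, so the label was not matched by a higher transcript level, and the name "library labelled JFK" is kept throughout. ING5 had 81 counts under ING5 siRNA and 144 in control siRNA (log2 fold −0.81, interval −1.23 to −0.41). Of 20 hepatocyte markers, 4 reached 20 counts in each library, and no count was listed for ALB, APOA2, APOH, TTR, TF or FOXA2, while CPS1 carried most of the list. These markers did not match the HepG2 label, and the cells are called HepG2 here only because the labels do so. Summed endothelial markers, mostly CDH5, stood at 164 CPM (counts per 1000000 reads assigned to genes) in the library labelled JFK, versus 145 in vector, and at 12.4 under ING5 siRNA and 26.6 in control siRNA. Fibroblast markers summed to 78.8 CPM in the library labelled JFK, versus 76.3 in vector, and to 94.1 under ING5 siRNA and 96.1 in control siRNA. Leukocyte markers, mostly CD68, summed to 184 CPM in the library labelled JFK, versus 182 in vector, and to 50.4 under ING5 siRNA and 61.4 in control siRNA. The part of these markers in the results was not tested. In such bulk RNA, fewer cells of a type and less RNA per cell cannot be told apart.

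Promoters are shown for 6 members, to set the DNA core that HIF binds beside the values that follow: the 4 members at least 1.5-fold higher under ING5 siRNA (HIF1A, ADM, STC2 and VLDLR) and 2 lower ones (ANGPTL4 and EGLN1), picked after their values were seen. Each window holds 250 bases before and 50 after a RefSeq start on GRCh38.p14, written 5′ to 3′ on the strand of the gene. Capitals mark ACGTG or GCGTG on either strand (reading CACGT or CACGC where the core lies on the other strand). For HIF1A, which has 2 windows in the table, the window that holds a core is shown.
HIF1A, chr14:61695263-61695562, plus strand: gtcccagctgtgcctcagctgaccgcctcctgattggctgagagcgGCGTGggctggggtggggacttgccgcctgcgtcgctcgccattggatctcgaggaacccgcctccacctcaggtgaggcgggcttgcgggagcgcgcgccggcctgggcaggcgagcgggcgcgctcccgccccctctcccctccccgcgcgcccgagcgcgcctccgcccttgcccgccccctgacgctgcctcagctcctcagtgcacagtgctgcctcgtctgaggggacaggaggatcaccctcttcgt
ADM, chr11:10304823-10305122, plus strand: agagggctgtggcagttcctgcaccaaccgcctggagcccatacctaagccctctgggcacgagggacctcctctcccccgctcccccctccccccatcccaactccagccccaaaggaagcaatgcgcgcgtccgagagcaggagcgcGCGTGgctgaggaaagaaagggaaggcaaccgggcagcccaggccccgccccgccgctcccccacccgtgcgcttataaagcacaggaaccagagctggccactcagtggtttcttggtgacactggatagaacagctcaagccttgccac
STC2, chr5:173328365-173328664, minus strand: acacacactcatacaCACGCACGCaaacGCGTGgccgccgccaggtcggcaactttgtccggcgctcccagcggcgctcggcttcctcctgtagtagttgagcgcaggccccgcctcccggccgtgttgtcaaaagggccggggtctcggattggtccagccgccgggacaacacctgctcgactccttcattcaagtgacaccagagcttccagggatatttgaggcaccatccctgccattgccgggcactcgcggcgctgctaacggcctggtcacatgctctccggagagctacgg
VLDLR, chr9:2621537-2621836, plus strand: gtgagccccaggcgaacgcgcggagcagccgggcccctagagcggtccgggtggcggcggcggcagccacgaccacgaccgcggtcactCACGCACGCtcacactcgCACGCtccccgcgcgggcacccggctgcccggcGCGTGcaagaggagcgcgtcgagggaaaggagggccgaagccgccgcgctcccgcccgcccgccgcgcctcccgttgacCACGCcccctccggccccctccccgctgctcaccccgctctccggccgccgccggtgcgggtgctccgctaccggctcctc
ANGPTL4, chr19:8363905-8364204, plus strand: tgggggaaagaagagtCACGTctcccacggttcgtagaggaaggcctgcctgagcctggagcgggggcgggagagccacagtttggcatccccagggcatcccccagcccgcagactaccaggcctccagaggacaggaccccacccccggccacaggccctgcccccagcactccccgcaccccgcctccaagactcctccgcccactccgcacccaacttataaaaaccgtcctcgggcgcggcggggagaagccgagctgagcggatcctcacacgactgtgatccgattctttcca
EGLN1, chr1:231422238-231422537, minus strand: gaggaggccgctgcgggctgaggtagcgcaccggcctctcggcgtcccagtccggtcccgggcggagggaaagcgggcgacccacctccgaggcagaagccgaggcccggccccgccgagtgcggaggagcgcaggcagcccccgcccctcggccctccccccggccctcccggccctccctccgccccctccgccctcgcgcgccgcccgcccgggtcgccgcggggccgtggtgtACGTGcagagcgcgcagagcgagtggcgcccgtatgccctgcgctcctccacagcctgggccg
The 4 higher members shown held GCGTG and no ACGTG, and ANGPTL4 and EGLN1 held ACGTG and no GCGTG. These 6 windows were picked, and the split was not the rule among the members with a window. EPAS1, with a fold above 0 under ING5 siRNA, and CA9, below 0, went with it. BNIP3 and PLOD2, above 0, and DDIT4 and KDM4B, below 0, held both cores. ARNT, EGLN3 and P4HA2 held neither. KDM3A and PLOD1, with folds below 0 under ING5 siRNA, had GCGTG and no ACGTG, and WSB1 and BHLHE40, with folds above 0, had ACGTG and no GCGTG. No window was matched for NDRG1. Whether the type of core goes with direction was not tested.

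A promoter window was matched for 28 of the 34 members. Either core, on either strand, was present in 25 of the 28, or 89.3%, against 71.7% of 9097 matched genes measured in both pairs and 52.4% of 27305 genes in the whole table. ACGTG was found for 17 members, or 60.7%, against 33.3% of the matched measured genes. GCGTG was found for 18, or 64.3%, against 59.8%. The core CACGTG, which reads alike on both strands, counts as a match to ACGTG on each, and genes with several windows count once if any window matched. BNIP3 held 6 matches in a single window and VLDLR 5, while no window of ARNT, EGLN3 or P4HA2 held any. A match is a description of the letters and does not show that HIF binds there. A window without a match does not show that the gene lacks a site elsewhere. MIR210HG, a non-coding RNA, is the host of the hypoxia-induced microRNA miR-210, whose locus lies within it on the same build. The mature form is shown because MIR210HG was read here only as host transcript, with the seed, bases 2 to 8, in capitals.
hsa-miR-210-3p, chr11:568112-568133, minus strand: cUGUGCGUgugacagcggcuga

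All 34 members were well enough covered to be measured, which required a mean of at least 20 counts after scaling by TMM (a depth correction that trims extreme genes). Their reads made up 0.322% of assigned reads in the library labelled JFK, versus 0.324% in vector, and 0.821% under ING5 siRNA and 0.738% in control siRNA. ANKRD37, an ankyrin-repeat gene and a usual hypoxia marker, had the fewest reads, with 30 counts in the library labelled JFK, versus 19 in vector, and 27 under ING5 siRNA and 21 in control siRNA. Per kilobase of gene length, the most abundant member in the vector pair was PLOD1 in the library labelled JFK, at 99.5 FPKM, and NDRG1 in vector, at 104 FPKM. In the siRNA pair it was HIF1A under ING5 siRNA, at 275 RPKM, and NDRG1 in control siRNA, at 408 RPKM. The lowest were STC2 in both libraries of the vector pair, at 2.23 FPKM in the library labelled JFK, versus 2.16 in vector, and ANKRD37 in the siRNA pair, at 3.17 RPKM under ING5 siRNA and 2.44 in control siRNA.

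**Figure D1:**
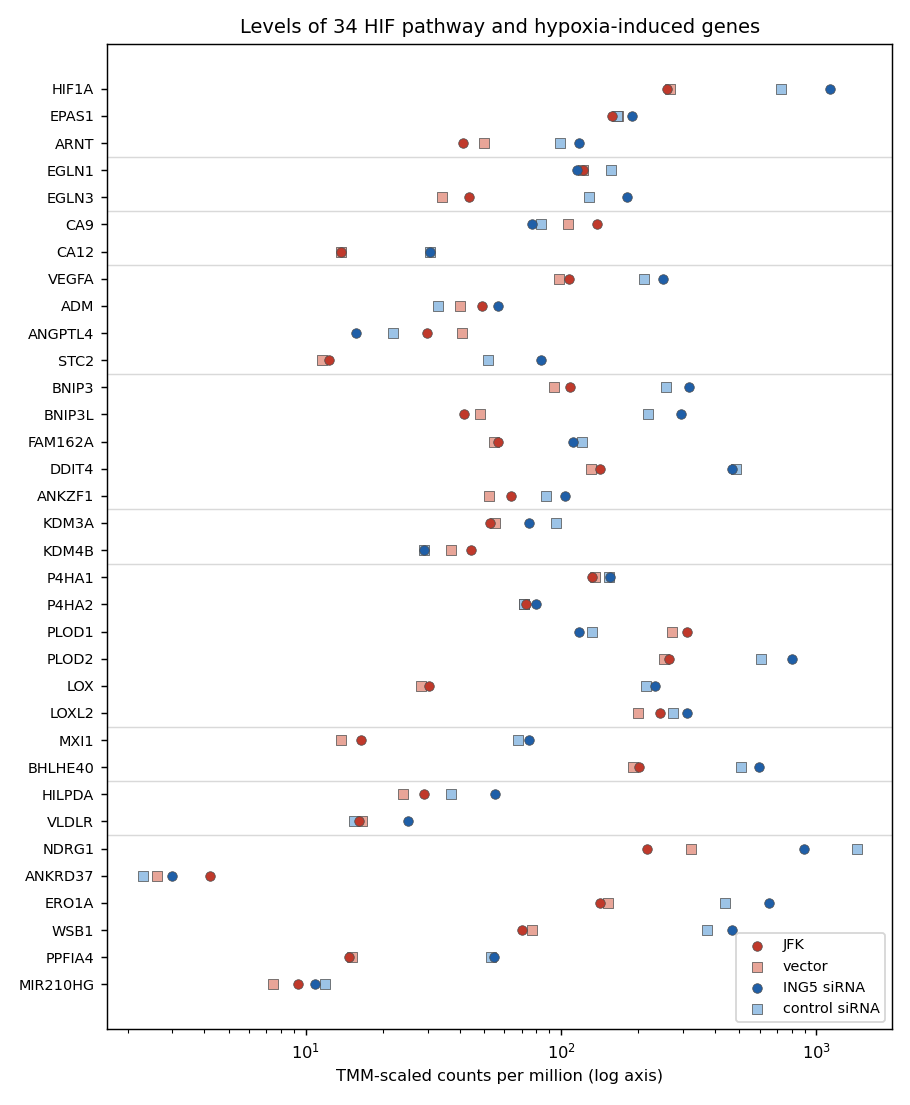
TMM-scaled CPM (log axis) of the 34 genes in the 4 libraries, 1 point per library, with lines between groups of genes by role. For most genes the siRNA libraries lie to the right of the vector pair; PLOD1, ANGPTL4, CA9 and KDM4B lie to the left.

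The control libraries were also set side by side. Between control siRNA and vector, 17 of the 34 members were at least 2-fold higher in CPM in control siRNA, as were 11.8% of 11148 genes measured in both pairs. A single member, PLOD1, was at least 2-fold lower, as were 17.4% of all genes. LOX, the enzyme that cross-links collagen, stood at 214.5 TMM-scaled CPM in control siRNA and 28.3 in vector. MXI1, an antagonist of MYC, stood at 67.5 CPM in control siRNA and 13.8 in vector, and WSB1, a ubiquitin ligase adaptor, at 373 in control siRNA and 76.7 in vector. PLOD1, a collagen lysyl hydroxylase, stood at 132 CPM in control siRNA and 271 in vector. Commonly used hypoxia markers went both ways. EGLN3 stood at 129 CPM in control siRNA and 34.3 in vector, NDRG1 at 1441 in control siRNA and 322 in vector, and VEGFA at 211 in control siRNA and 97.8 in vector. CA9 stood at 83.3 CPM in control siRNA and 106 in vector, and ADM at 32.9 in control siRNA and 40.0 in vector. ANKRD37 stood at 2.29 CPM in control siRNA and 2.61 in vector. It had 21 counts in control siRNA and 19 in vector, too few to give a direction. The pairs were deposited in different units, as whole counts and as estimated counts, each table was scaled within its own pair, and treatment type and table cannot be told apart here.

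ING5 siRNA was set against control siRNA to ask how these transcripts differ where ING5 is lower. More members stood above control siRNA than below, 23 (67.6%) against 11, where 48.6% of all 11634 measured genes stood above. The differences were small. Of the 34, 4 were at least 1.5-fold higher (11.8%), against 4.01% of all measured genes, and 1 was at least 1.5-fold lower (2.94%), against 4.4%. No member was 2-fold apart, as were 0.765% of genes upward and 0.696% downward. The median log2 fold was 0.19 for the members and −0.01 for all measured genes. The exact 95% interval of the count ratio, which covers counting error only, lay wholly above 0 for 18 members (52.9%), against 18.3% of genes, and wholly below 0 for 5 (14.7%), against 20.6%. Members have narrower intervals than most genes, since their median normalised count was 1098 against 320.

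The HIF subunits were all higher under ING5 siRNA. HIF1A, the broadly expressed alpha subunit, had 10224 counts under ING5 siRNA and 6658 in control siRNA (log2 fold 0.63, interval 0.59 to 0.68). ARNT, the shared partner, had 1070 counts under ING5 siRNA and 906 in control siRNA (0.26, interval 0.13 to 0.39). EPAS1, the alpha subunit HIF-2 alpha, had 1724 counts under ING5 siRNA and 1521 in control siRNA (0.20, interval 0.10 to 0.30), and of the 3 only HIF1A passed 1.5-fold. Whether reads of antisense RNA at HIF1A were counted with it is stated in none of the sources used.

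The hydroxylases among the members, EGLN3 and EGLN1, went apart. EGLN3, a prolyl hydroxylase that hypoxia itself induces, had 1647 counts under ING5 siRNA and 1178 in control siRNA (0.50, interval 0.39 to 0.61). EGLN1, the main oxygen sensor, had 1047 counts under ING5 siRNA and 1442 in control siRNA (−0.45, interval −0.56 to −0.33). Neither passed 1.5-fold, a log2 fold of 0.585. The carbonic anhydrases, which set pH at the cell surface, were close to control siRNA: CA9 had 698 counts under ING5 siRNA and 763 in control siRNA (−0.11, interval −0.26 to 0.04), and CA12 had 277 counts under ING5 siRNA and 281 in control siRNA.

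Among secreted factors, ADM, the vasodilator adrenomedullin, was the highest of all members, with 512 counts under ING5 siRNA and 301 in control siRNA (0.78, interval 0.57 to 0.99), or 1.72-fold. STC2, a secreted glycoprotein, had 758 counts under ING5 siRNA and 476 in control siRNA (0.69, interval 0.52 to 0.86). VEGFA, the endothelial growth factor, had 2266 counts under ING5 siRNA and 1931 in control siRNA (0.25, interval 0.16 to 0.34). ANGPTL4, an inhibitor of lipoprotein lipase, was the exception in this role, with 143 counts under ING5 siRNA and 201 in control siRNA (−0.47, interval −0.79 to −0.16). Its RPKM of 7.50 under ING5 siRNA corresponds to 134 counts and not to the 143 listed, and by RPKM its log2 fold was −0.56.

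The lipid genes were both higher. VLDLR, a lipoprotein receptor, had 227 counts under ING5 siRNA and 142 in control siRNA (0.69, interval 0.38 to 1.01), which passed 1.5-fold. HILPDA, a lipid droplet protein that restrains lipolysis, had 500 counts under ING5 siRNA and 340 in control siRNA (0.57, interval 0.37 to 0.78) and lay just under it. ERO1A, the oxidase that drives disulfide formation in the endoplasmic reticulum, also lay just under it, with 5905 counts under ING5 siRNA and 4021 in control siRNA (0.57, interval 0.51 to 0.63). Of the 4 members past 1.5-fold, ADM, STC2 and VLDLR had intervals that reach below it.

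Mitophagy receptors were moderately higher: BNIP3L had 2678 counts under ING5 siRNA and 2016 in control siRNA (0.43, interval 0.34 to 0.51), and BNIP3 had 2876 counts under ING5 siRNA and 2368 in control siRNA (0.30, interval 0.22 to 0.38). ANKZF1, a factor of ribosome quality control, lay at 0.24. DDIT4, an inhibitor of mTORC1 signalling, had 4225 counts under ING5 siRNA and 4426 in control siRNA (−0.05, interval −0.11 to 0.01), and the mitochondrial protein gene FAM162A lay at −0.12, both with intervals that reach 0. Of the histone demethylases, KDM3A had 681 counts under ING5 siRNA and 872 in control siRNA (−0.34, interval −0.49 to −0.19), while KDM4B lay at −0.01.

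Collagen-modifying genes ran from −0.17 to 0.40 with a median of 0.13. PLOD2, the lysyl hydroxylase of collagen telopeptides, had 7273 counts under ING5 siRNA and 5561 in control siRNA (0.40, interval 0.35 to 0.45), whereas its relative PLOD1 had 1063 counts under ING5 siRNA and 1212 in control siRNA (−0.17, interval −0.29 to −0.05). The cross-linking oxidases LOXL2 and LOX lay at 0.19 and 0.12, and the prolyl hydroxylase subunits P4HA2 and P4HA1 at 0.15 and 0.02. Of the repressors, BHLHE40 had 5386 counts under ING5 siRNA and 4648 in control siRNA (0.23, interval 0.17 to 0.29), and MXI1 lay at 0.15.

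NDRG1, a stress-responsive gene often used as a hypoxia marker, was the lowest member and the only one at least 1.5-fold lower. It had 8093 counts under ING5 siRNA and 13203 in control siRNA (−0.69, interval −0.73 to −0.65), or 62.0% of the control level. Its RPKM of 247 under ING5 siRNA corresponds to 7907 counts in place of 8093, and by RPKM its log2 fold was −0.72. WSB1 had 4235 counts under ING5 siRNA and 3415 in control siRNA (0.33, interval 0.26 to 0.39). ANKRD37 lay at 0.37 (interval −0.50 to 1.27), MIR210HG at −0.14 (interval −0.55 to 0.27) and PPFIA4, a liprin gene, at 0.05 (interval −0.14 to 0.23), so these 3 were not distinguishable from control siRNA at this depth.

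**Figure D2:**
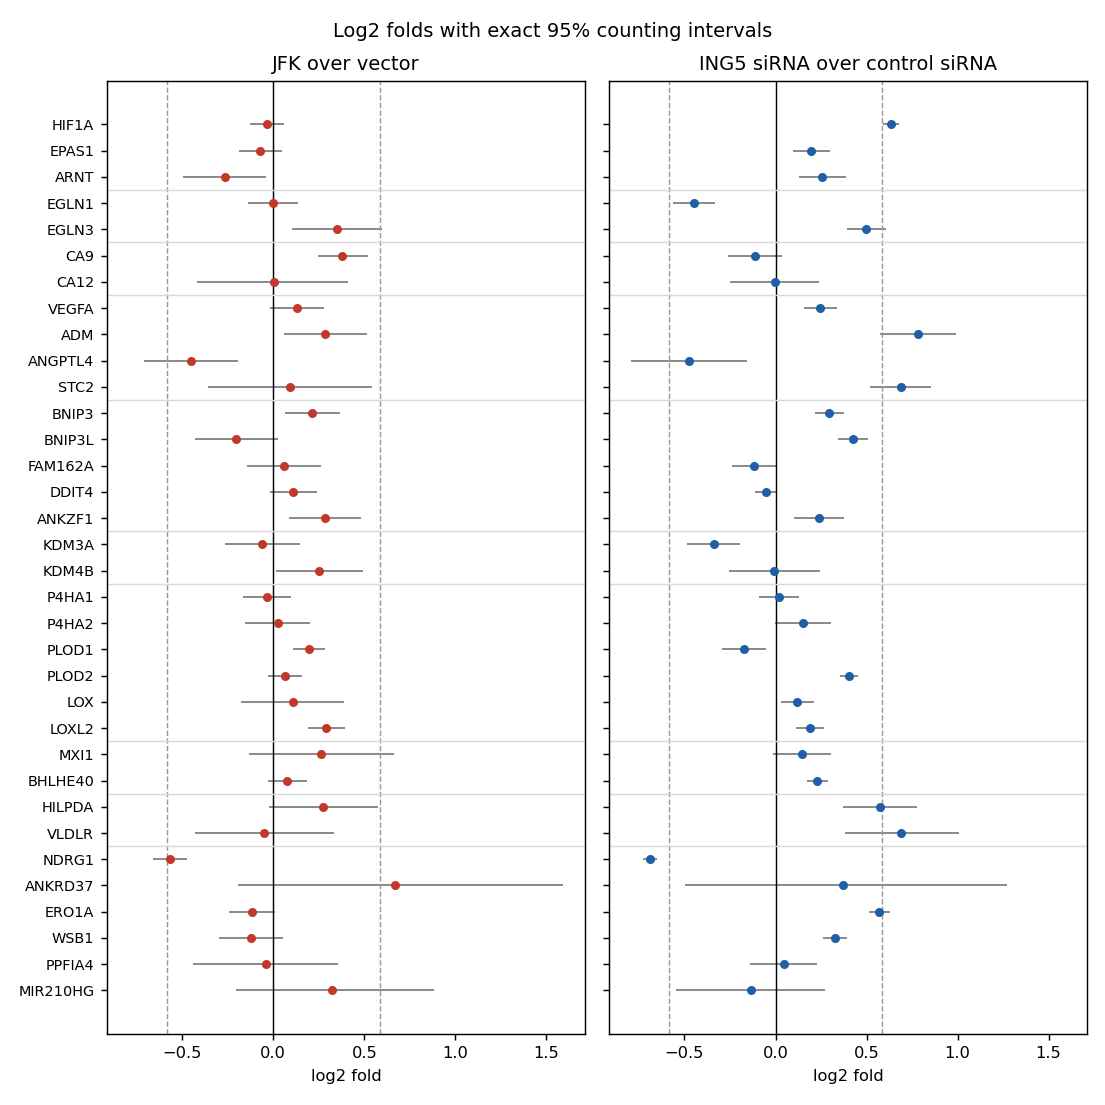
Log2 fold of each member, for the library labelled JFK over vector (left) and ING5 siRNA over control siRNA (right). Points are the log2 folds, bars the exact 95% counting intervals and dashed lines 1.5-fold; on the right HIF1A, ADM, STC2 and VLDLR lie above the upper dashed line and NDRG1 below the lower one.

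The plasmid comparison set the same transcripts in the library labelled JFK against vector, where FBXO42 itself was level. Differences were smaller than in the siRNA pair. Of 34 members, 1 was at least 1.5-fold higher (2.94%), against 1.5% of 12107 measured genes, and 0 were at least 1.5-fold lower, against 2.07%. None was 2-fold apart, as were 0.273% of genes upward and 0.297% downward. The median log2 fold was 0.07 for the members and 0.00 for all measured genes. Above 0 were 21 members (61.8%), against 50.5% of all measured genes, and 13 were below. The interval lay wholly above 0 for 8 members (23.5%), against 14.3% of genes, and wholly below 0 for 3 (8.82%), against 11.2%. Intervals of members were narrower than those of most genes here too, with a median normalised count of 409 against 261.

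The member past 1.5-fold was ANKRD37, with 30 counts in the library labelled JFK, versus 19 in vector, but its interval of −0.19 to 1.59 around a log2 fold of 0.67 does not separate the libraries. CA9, a widely used HIF target, had 988 counts in the library labelled JFK, versus 772 in vector (0.38, interval 0.24 to 0.52). EGLN3 had 312 counts in the library labelled JFK, versus 249 in vector (0.35, interval 0.10 to 0.60). ADM had 349 in the library labelled JFK, versus 291 in vector (0.29, interval 0.06 to 0.52). These 3 inducible genes were thus higher beyond counting error, all below 1.5-fold.

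LOXL2 had 1748 counts in the library labelled JFK, versus 1453 in vector (0.29, interval 0.19 to 0.39), and PLOD1 had 2218 in the library labelled JFK, versus 1971 in vector (0.19, interval 0.11 to 0.28). The other members with an interval above 0 were ANKZF1 at 0.28, KDM4B at 0.25 and BNIP3 at 0.21. The subunits did not follow: HIF1A had 1866 counts in the library labelled JFK, versus 1945 in vector (−0.04, interval −0.13 to 0.06), EPAS1 1135 in the library labelled JFK, versus 1213 in vector (−0.07), and ARNT 295 in the library labelled JFK, versus 361 in vector (−0.27, interval −0.49 to −0.04). EGLN1 was level, with 870 expected counts in the library labelled JFK, versus 886 in vector. VEGFA lay at 0.13, with an interval of −0.02 to 0.28.

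NDRG1 and ANGPTL4 were the lowest members here too. NDRG1 had 1550 counts in the library labelled JFK, versus 2338 in vector (−0.57, interval −0.66 to −0.48), just short of 1.5-fold, and by total-count scaling or FPKM it passed, at −0.60 and −0.61. ANGPTL4 had 213 counts in the library labelled JFK, versus 296 in vector (−0.45, interval −0.71 to −0.19). Estimated counts were not whole for 8 members in the library labelled JFK, versus 9 in vector, among them HILPDA, MIR210HG and CA12, as arises where reads are divided among overlapping or similar genes.

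**Figure D3:**
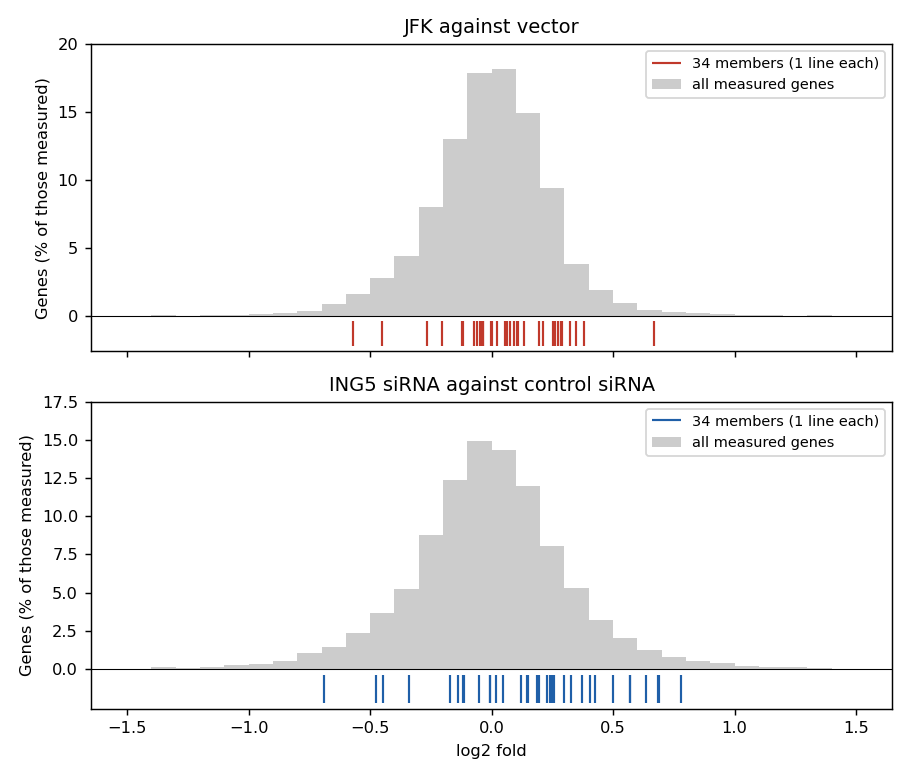
Distribution of log2 folds over all measured genes (grey bars, percent of genes per bin of 0.1) with 1 line per member below it, for the library labelled JFK against vector (top) and ING5 siRNA against control siRNA (bottom). Members centre near 0.07 in the upper panel and 0.19 in the lower one.

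The pairs have separate controls, so the same genes could be set side by side. Above 0 in both were 14 of the 34 members (41.2%), against 23.9% of 11148 genes measured in both, and below 0 in both were 4 (11.8%), against 25.9%. No member was at least 1.5-fold apart in the same direction in both, while 0.377% of all genes were. Counting intervals lay above 0 in both pairs for 5 members, ADM, EGLN3, BNIP3, ANKZF1 and LOXL2, 14.7% of the 34, against 2.84% of all genes. They lay below 0 in both for 2, NDRG1 and ANGPTL4, or 5.88%, against 3.94% of all genes, which is near the background. Intervals of members were narrower than those of most genes in both pairs, and these shares were not matched for read depth. For NDRG1 the log2 folds were −0.57 in the library labelled JFK, next to −0.69 under ING5 siRNA, and for ANGPTL4 they were −0.45 in the library labelled JFK, next to −0.47 under ING5 siRNA. HIF1A differed in size between the pairs, at −0.04 in the library labelled JFK, next to 0.63 under ING5 siRNA, and so did ERO1A, at −0.12 in the library labelled JFK, next to 0.57 under ING5 siRNA; these differences were not tested.

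**Figure D4:**
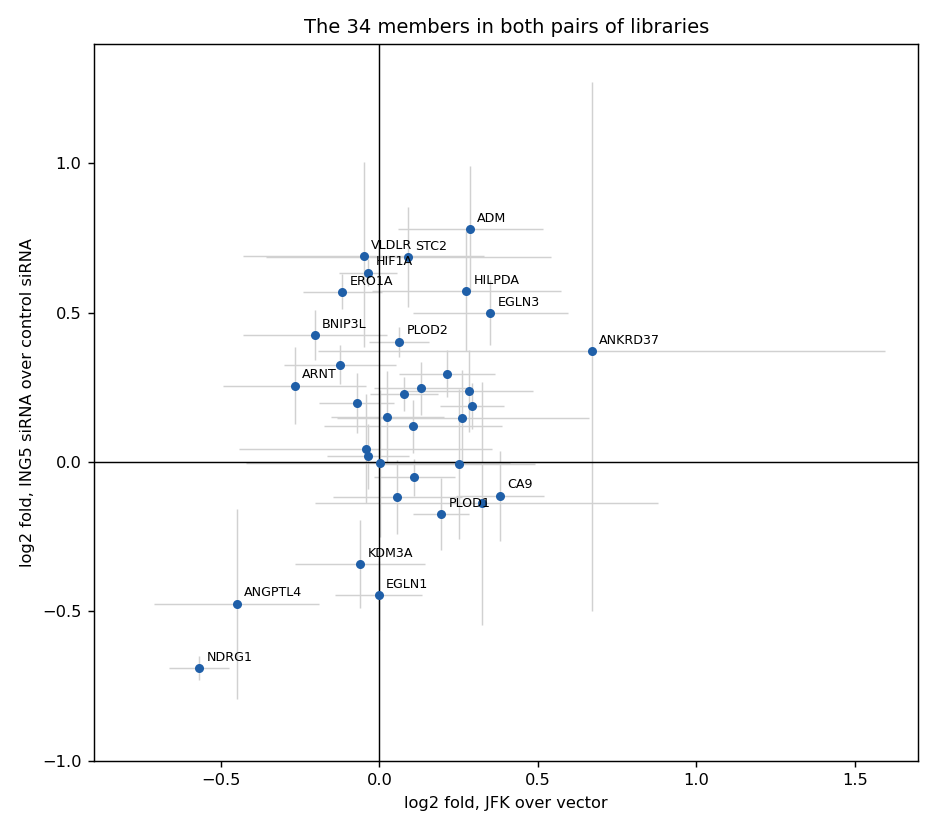
Log2 fold of each member under ING5 siRNA (vertical) against that in the library labelled JFK (horizontal), with exact 95% counting intervals as bars. NDRG1 and ANGPTL4 lie in the lower left, ADM and EGLN3 in the upper right, and HIF1A near 0 on the horizontal axis but at 0.63 on the vertical one.

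Other genes of the pathway were read from lists that hold no member, also chosen with earlier results of these data known. Of 33 further hypoxia-induced genes sought, 31 were found and 28 were measured in each pair. The filter was applied within each pair, so the 28 were not wholly the same genes. Under ING5 siRNA 23 of the 28 measured there (82.1%) lay above 0, against 48.6% of all measured genes, with a median log2 fold of 0.29. At least 1.5-fold higher were 5 (17.9%, against 4.01% of all measured genes), and 1 was lower (3.57%, against 4.4%). PDGFB, a growth factor gene, had 274 counts under ING5 siRNA and 87 in control siRNA (1.67, interval 1.32 to 2.04), and NT5E, which makes adenosine outside the cell, had 281 under ING5 siRNA and 117 in control siRNA (1.28). PPP1R3C, a glycogen-targeting phosphatase subunit, was the lowest, with 241 counts under ING5 siRNA and 403 in control siRNA (−0.72, interval −0.96 to −0.49). In the library labelled JFK the median of this list was 0.04. Of the 28 measured in that pair, 0 were 1.5-fold apart in either direction, where 1.5% of all genes were higher and 2.07% lower.

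Glycolytic hypoxia targets lay on both sides of control siRNA under ING5 siRNA. Of 21 measured, 12 lay above 0 (57.1%, against 48.6% of all measured genes), with a median of 0.06, so the share above 0 was near that of all genes. At least 1.5-fold higher were 3 (14.3%, against 4.01%), and 0 were lower, where 4.4% of all genes were. SLC2A3, a glucose transporter, had 163 counts under ING5 siRNA and 92 in control siRNA (0.84, interval 0.46 to 1.23), the highest of the list. HK2 and ENO2 came next, at 0.71 and 0.69, and the 3 lowest were PGAM1, ENO1 and PGK1, at −0.28, −0.23 and −0.18. In the library labelled JFK 18 of the 21 (85.7%) lay above 0, against 50.5% of all measured genes, with a median of 0.18, and 0 were 1.5-fold apart, where 1.5% of all genes were higher and 2.07% lower.

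Regulators of HIF lay on both sides of 0 in each pair. Of 15 measured in the siRNA pair 7 lay above 0 (46.7%, against 48.6% of all measured genes), with a median of −0.05, and of 17 in the vector pair 11 did (64.7%, against 50.5%), with a median of 0.05. At least 1.5-fold apart were 0 in either pair. Among all measured genes 4.01% were higher and 4.4% lower in the siRNA pair, and 1.5% higher and 2.07% lower in the vector pair, so 0 of so few genes is near the background. RBX1, the RING subunit of the VHL ligase, had 201 counts under ING5 siRNA and 275 in control siRNA (−0.44, interval −0.71 to −0.17), and CUL2, its scaffold, 631 under ING5 siRNA and 540 in control siRNA (0.24). CITED2, which competes with HIF for the coactivators CBP and p300, lay at −0.37. ARNT2, a relative of ARNT, had 716 counts in the library labelled JFK, versus 486 in vector (0.58, interval 0.42 to 0.75), just below 1.5-fold, and 270 under ING5 siRNA and 271 in control siRNA.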

How the data were processed

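The 4 tables held 1 library each. Deposited expected counts and deposited FPKM stand in the vector and JFK tables, and deposited whole counts and deposited RPKM in the siRNA tables, per the file headers. FastQC, fastp, STAR and DESeq2 with the builds GRCh37 and hg19 are named in the submitters' processing notes; their roles and the read counter are, in the sources used here, not given. In the deposited RPKM columns 0.01 stands for a count of 0. Genes were matched by Entrez identifier to a RefSeq table of GRCh38.p14 (16899 of 17009 identifiers used in the vector pair, 16767 of 16856 in the siRNA pair), so no gene coordinates of the files are given. Sequences are from RefSeq tables of the same build. Identifiers listed more than once, or with a blank count, were left out.

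Counts were scaled within each pair by TMM (trims 0.3 and 0.05), brought to the mean library size, 0.5 was added and the log2 ratio taken, with scipy 1.17.1, pandas 2.3.3 and numpy 2.4.6 under Python 3.11.15 and matplotlib 3.10.9 for plots. Fitting a count model needs replicates, so there is no p-value. Exact 95% Clopper-Pearson intervals of the count ratio, with expected counts rounded, cover counting error only; reads lacking molecular identifiers need not be independent molecules. Genes were measured if their normalised counts averaged at least 20, and 1.5-fold was the threshold. A count and its FPKM or RPKM were taken to disagree beyond 0.001 counts in the siRNA tables and beyond 5% plus rounding in the vector pair; 146 and 506 genes did. The library total sets the precision: 3 reads correspond to 0.415, 0.418, 0.332 and 0.326 CPM in the library labelled JFK, vector, ING5 siRNA and control siRNA.

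On simulated counts with counting error only and 200 genes set 3-fold apart, 100.0% of these passed 1.5-fold in both pairs. No member was even 2-fold apart, so this does not show how differences of the members' size are recovered. Of 12103 genes in the vector pair 199 passed with no change, and of 11625 in the siRNA pair 172, so counting error alone gives calls. Members and lists were chosen with earlier results of these data known. The named genes are all members, and the 3 highest and 3 lowest measured genes of each further list, from which examples are given. Alternatives were median-of-ratios and total-count scaling, 5 added, no filter, a mean of at least 100, FPKM or RPKM with 0.1 added, leaving out genes whose units disagree, and whole counts only; counts implied by FPKM or RPKM were added after the data were seen.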

Additional observations from a re-analysis of the deposited data

Results flagged for a closer look

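ARNT and PLOD1 stood on opposite sides of 0 in the pairs, with counting intervals clear of 0 in each. ARNT lay at −0.27 in the library labelled JFK against vector and at 0.26 under ING5 siRNA against control siRNA. PLOD1 lay at 0.19 in the library labelled JFK against vector and at −0.17 under ING5 siRNA against control siRNA. The difference between the pairs was not tested, since each group holds 1 library. Such opposite intervals occurred for 2 of the 34 members (5.88%) and for 6.04% of 11148 genes measured in both pairs, so their share among the members is near that of all genes.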

How the results depend on the processing

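No paired analysis was possible because each group holds 1 library, and for the same reason no replicate could be left out. Over the alternatives the members' median log2 fold ran from 0.03 to 0.09 in the library labelled JFK against vector and from 0.18 to 0.21 under ING5 siRNA. The 4 members at least 1.5-fold higher under ING5 siRNA stayed 4 under each of them. Members 1.5-fold higher in the library labelled JFK came to 0 with 5 added and 0 at a mean of at least 100, where ANKRD37 falls below the threshold and the filter. Members 1.5-fold lower there came to 1 with total-count scaling and 1 by FPKM, namely NDRG1, and members 1.5-fold apart in the same direction in both pairs to 1 and 1 with them. Without genes whose count and RPKM disagree, 0 members were 1.5-fold lower under ING5 siRNA, since NDRG1 is then left out. Members above 0 in both pairs numbered 12 to 14. Near 0 the sign of CA12, P4HA2 and KDM4B turned with the scaling. Variation between cultures was not measured, so no difference is known to exceed it.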
